A study of Mus musculus with 6 samples.

Results

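Neuropeptides and their receptors were followed in the embryonic midbrain after conditional deletion of Lmx1b, as a list of 48 genes that holds 26 peptide precursors and 22 G protein-coupled peptide receptors. The members were chosen by name as well-known neuropeptides and receptors, without cholecystokinin (Cck), and matched to the deposited table of 26852 genes by their Ensembl identifiers. Of the 48 genes, 47 had values in all libraries, and the expression of Ucn was not analysed here. RNA of dissected E14.5 midbrains from littermates on a C57Bl/6 background was sequenced as 3 libraries of Lmx1b fl/fl;Pitx3-Cre conditional knock-outs (cKO) and 3 libraries of Lmx1b wt/wt;Pitx3-Cre controls, each pooled from a pair of embryos. All embryos of both genotypes carried the Pitx3-Cre allele, in which Cre is inserted into the Pitx3 gene, so that the controls are not wild type at Pitx3. Cre is driven by Pitx3 in mesodiencephalic dopaminergic (mdDA) neurons shortly before the stage examined, whereas the dissection held the whole midbrain, so the deletion reaches only some of the cells in each sample. The comparison of cKO with control asks which of these peptides and receptors depend on Lmx1b once mdDA neurons have left the cell cycle.

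Neuropeptides are made as longer precursors, which are cut by prohormone convertases, trimmed by carboxypeptidases and stored in dense core vesicles, and most act on receptors that couple to G proteins. In the midbrain, mdDA neurons of the substantia nigra and ventral tegmental area respond to several of them, among them neurotensin, substance P and opioid peptides, and a subset of mdDA neurons makes cholecystokinin. Many precursors are better known from neighbouring regions: vasopressin, oxytocin, corticotropin-releasing hormone, thyrotropin-releasing hormone, orexin and melanin-concentrating hormone are classical products of the hypothalamus.

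Values are normalized counts, which are whole reads divided by the size factor of the library. The deposited table gives the mean of each genotype, from which the reads of every library were recovered. The libraries of a genotype are labelled replicates a, b and c by falling size factor, and their values are given in that order. Between 20782935 and 25240920 reads per library lay on the recovered genes. Lmx1b itself stood at 1257, 1401 and 1455 normalized counts in the cKO and 1368, 1352 and 1474 in the control, and the groups overlapped, so the whole-midbrain count of the targeted gene did not separate the genotypes. These counts are of the gene as a whole. By in situ hybridization the paper saw Lmx1b lost in the mdDA area of cKO embryos at this stage. Its quantitative PCR of midbrains homozygous for the Pitx3-Cre allele also found less Lmx1b RNA after the deletion. The labelled tissue was checked against its markers: the midbrain genes En1, En2, Otx2, Foxa2 and Lmx1a were present in all libraries, hindbrain Hox genes reached at most 5.31 normalized counts, and the pituitary genes Lhx3, Tbx19, Cga and Pou1f1 at most 4.32, while Pitx1, also a pituitary gene, stood at 95.1 to 144. Hypothalamic transcription factors were present as well (Nkx2-1 at 360.2 to 1249 normalized counts), and control replicate b stood apart for them. Bone and mesenchyme genes were high in 2 cKO libraries, with Col1a1 at 532, 14.8 and 6097 normalized counts in the cKO and 10.6, 11.5 and 10.8 in the control.

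Peptide genes differed widely in level. On a scale of normalized counts per kilobase of merged exon, which allows genes of different length to be compared, somatostatin (Sst) led with a mean level of 1708, followed by the nociceptin receptor Oprl1 with 1491 and the PACAP receptor Adcyap1r1 with 985. The libraries of Sst and Oprl1 overlapped, those of Oprl1 all lay above those of Adcyap1r1, and those of Adcyap1r1 all lay above those of the next gene, the nociceptin precursor Pnoc (387). On this scale these were the only 2 of the 40 steps between neighbours in the order of levels at which the libraries did not overlap, so that the order below Pnoc is not resolved step by step. Per kilobase of the longest transcript, an alternative chosen after seeing the data, the mean was 1804 for Oprl1, 1708 for Sst, 1065 for Adcyap1r1 and 387 for Pnoc, so that the order of Sst and Oprl1 turned. The 19 tested precursors had a median level of 92.1 per kilobase and the 22 receptors of 23.7, beside 153 for all 16697 genes tested, and 6 precursors and 2 receptors lay above that gene median. Oprl1 and Adcyap1r1 together held 62.9% of the members' summed normalized counts. At the low end, 6 precursors had a mean under 10 normalized counts and were not tested: Nppc (C-type natriuretic peptide), Oxt (oxytocin), Hcrt (orexin), Calcb (a calcitonin gene-related peptide), Nmu (neuromedin U) and Tac2 (neurokinin B), which had 2 to 44 reads over all libraries, with Nmu and Tac2 at 3 or fewer in every library.

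**Figure D1:**
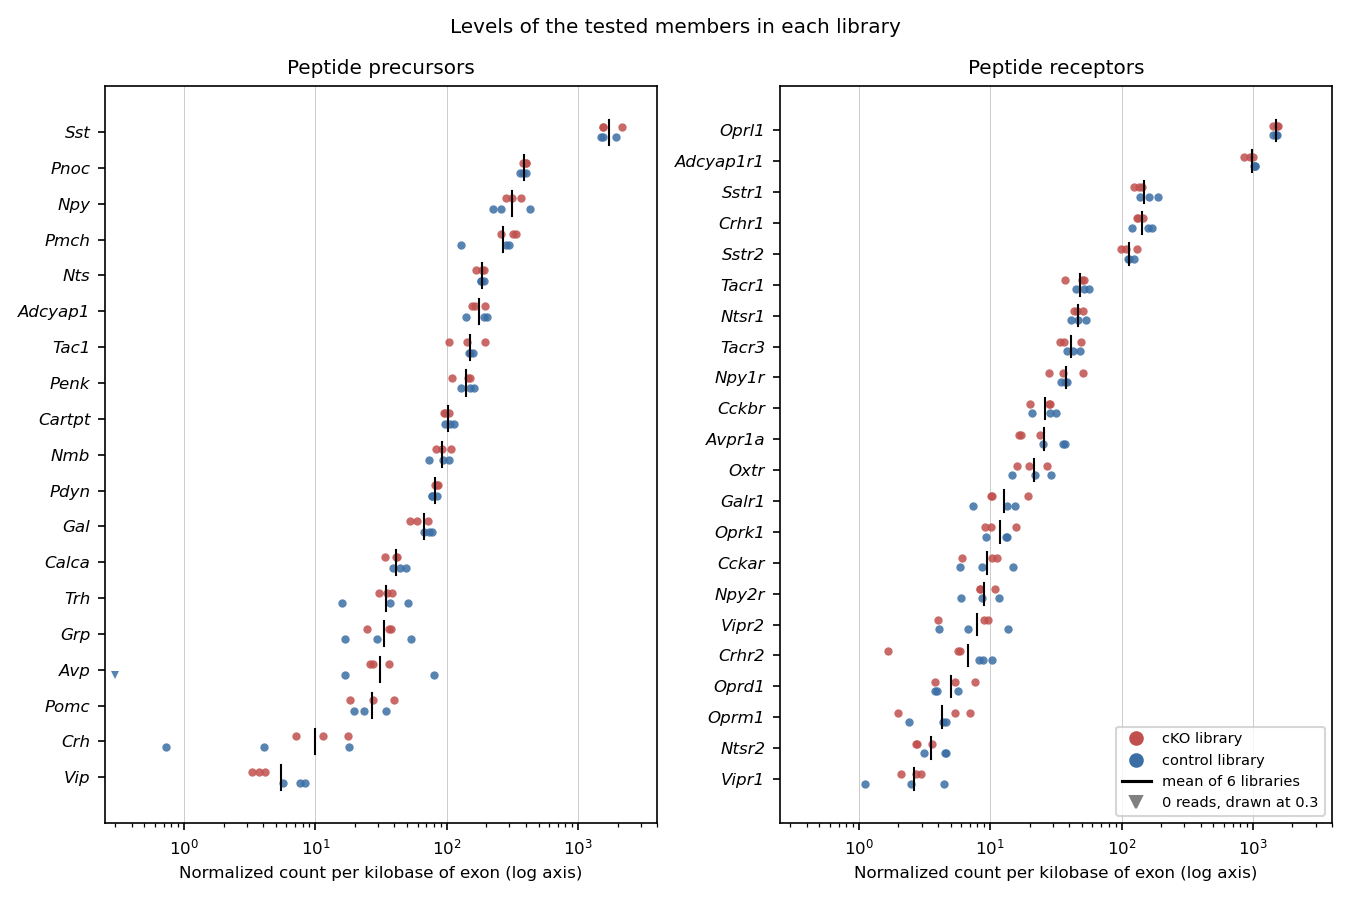
Level of each tested member in each of the 6 libraries, in normalized counts per kilobase of merged exon on a log axis, with precursors on the left and receptors on the right; red points are cKO libraries, blue points control libraries and black lines the mean of all libraries. Sst, Oprl1 and Adcyap1r1 stand at the top with means of 1708, 1491 and 985, and the points of both genotypes lie over each other for most members.

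Few members separated the genotypes. Of the 41 tested members, the fitted value was below 0 for 21 and above 0 for 20, and their median log2 fold change (cKO over control) was -0.03, with -5.2e-05 for all genes tested. No member had an adjusted p under 0.05 in limma with Benjamini-Hochberg adjustment over all 16697 genes, and neither did any other gene (0%); the smallest adjusted p among the members was 1.00. At an unadjusted p under 0.05, 4 members were called and all 4 were lower in the cKO, where 1.61% of all genes tested were called lower, 1.19% higher and 2.8% in either direction. Limma-trend on log2 normalized counts also called 4 members, and 0 with an adjusted p under 0.05. The same 4 were the members whose cKO and control libraries did not overlap, beside 3.79% of all genes tested that were lower without overlap, 3.87% that were higher and 7.65% without overlap in either direction. Without cKO replicate b 1 member was called lower and without control replicate b 2 were, and without control replicate a 3 were called higher. The 4 are 3 receptors, Adcyap1r1, Avpr1a and Crhr2, and 1 precursor, Vip. The log2 fold change was smaller in size than its standard error for 33 of the 41 members. In bulk tissue, fewer cells of a type and less RNA per cell cannot be told apart.

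**Figure D2:**
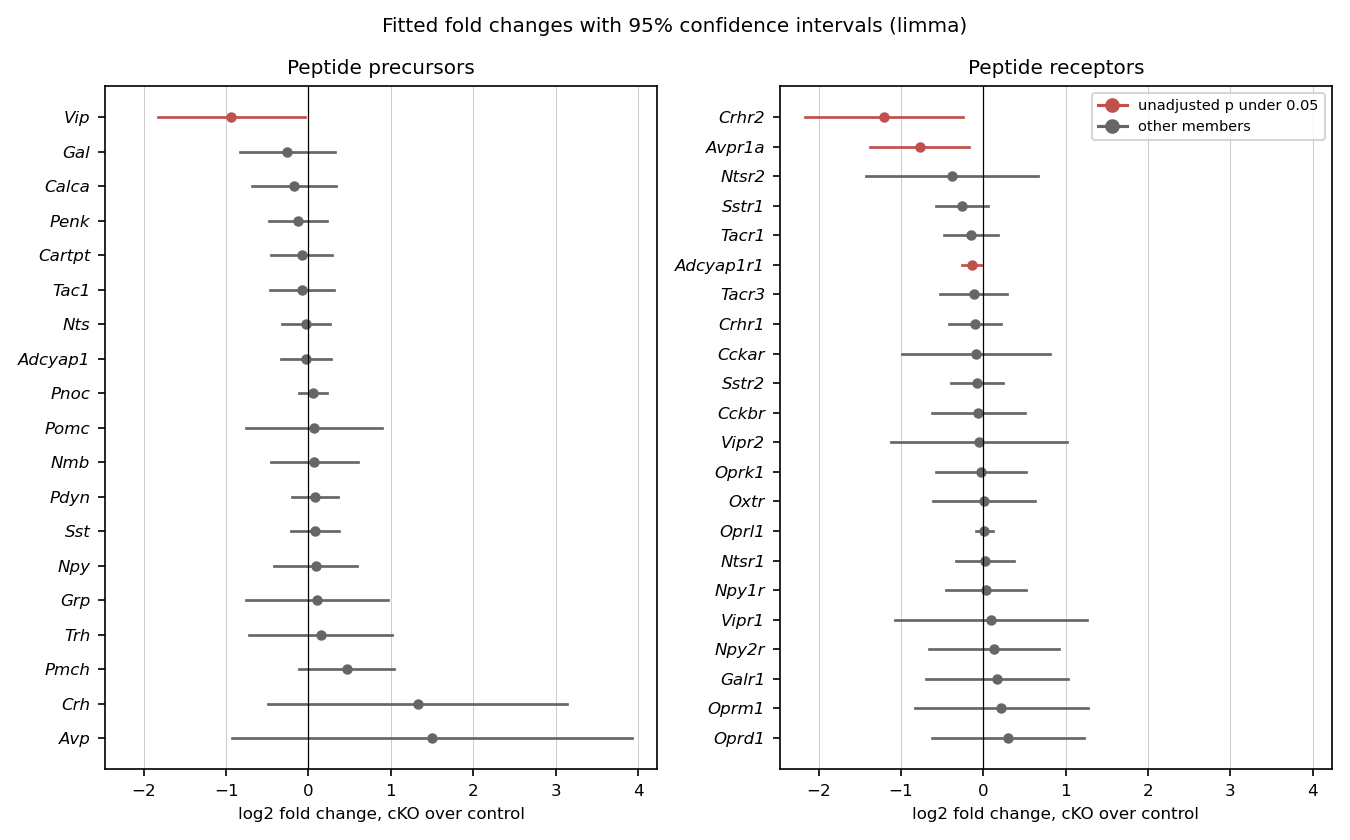
Fitted log2 fold change of each tested member (cKO over control, limma) with its 95% confidence interval, precursors on the left and receptors on the right, sorted by size. The 4 members with an unadjusted p under 0.05, drawn in red, lie between -1.20 and -0.14, and the widest intervals belong to Avp and Crh.

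Adcyap1r1, the receptor for PACAP, is the most abundant of these 4 genes and the one with the smallest change. It lies on chromosome 6 (ENSMUSG00000029778, chr6:55451978-55501451, GRCm38, plus strand) and had 6303, 5666 and 6598 normalized counts in the cKO and 6754, 6887 and 6819.5 in the control. The 3 control libraries lay close together and all 3 cKO libraries were below them, with cKO replicate b lowest. The means were 6189 ± 477 and 6820.2 ± 66.2 (SD, n = 3), a log2 fold change of -0.14 ± 0.05 (SE) with an unadjusted p = 0.0238 in limma. The unadjusted p rose to 0.125 without cKO replicate b (log2 fold change -0.08), to 0.0562 without control replicate b (-0.14) and to 0.0578 without control replicate c (-0.14). The libraries of its ligand gene Adcyap1 overlapped, with 531 to 768 normalized counts over the 6 libraries (log2 fold change -0.03 ± 0.14, unadjusted p = 0.833 in limma).

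Avpr1a, a receptor for vasopressin, lies on chromosome 10 (ENSMUSG00000020123, chr10:122448499-122453452, plus strand). It had 44.0, 63.4 and 45.5 normalized counts in the cKO and 96.4, 67.2 and 98.3 in the control, so that cKO replicate b came within a few counts of control replicate b while the other libraries were well apart. The means were 51.0 ± 10.8 and 87.3 ± 17.4 (SD, n = 3), with a log2 fold change of -0.77 ± 0.27 (SE) and an unadjusted p = 0.0154 in limma. Without cKO replicate a the value was -0.67 (unadjusted p = 0.057). The related oxytocin receptor Oxtr did not separate the groups, with 130.2, 77.1 and 94.2 normalized counts in the cKO and 69.9, 105 and 139 in the control (log2 fold change 0.01 ± 0.28, unadjusted p = 0.973 in limma).

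Crhr2, which binds urocortins and corticotropin-releasing hormone, lies on chromosome 6 (ENSMUSG00000003476, chr6:55090049-55133016, minus strand) and had 29.98, 8.45 and 29.2 normalized counts in the cKO and 45.1, 42.3 and 52.9 in the control. cKO replicate b was far below the other libraries. With means of 22.6 ± 12.2 and 46.8 ± 5.52 (SD, n = 3), the log2 fold change was -1.20 ± 0.44 (SE), the lowest of all members, with an unadjusted p = 0.0186 in limma, and without cKO replicate b it was -0.64 (unadjusted p = 0.098). Crhr1, the receptor with the higher affinity for corticotropin-releasing hormone, stood at 143 normalized counts per kilobase, beside 6.78 for Crhr2, and overlapped between the groups, with 356, 321 and 329 normalized counts in the cKO and 293, 421 and 388 in the control (log2 fold change -0.10 ± 0.15, unadjusted p = 0.505 in limma).

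Vip, the precursor of vasoactive intestinal peptide, lies on chromosome 10 (ENSMUSG00000019772, chr10:5639218-5647617, plus strand) and had 11.2, 12.7 and 14.1 normalized counts in the cKO and 28.3, 25.9 and 19.4 in the control. All 3 cKO libraries were below all 3 control libraries, on 114 reads over the 6 libraries together. The means were 12.7 ± 1.41 and 24.6 ± 4.59 (SD, n = 3), with a log2 fold change of -0.94 ± 0.41 (SE) and an unadjusted p = 0.0423 in limma. The unadjusted p stayed under 0.05 in 1 of the 6 fits that left out a library, the one without control replicate c (unadjusted p = 0.0345), and was highest without control replicate a (-0.82, unadjusted p = 0.111). Its receptors Vipr1 and Vipr2, which also bind PACAP, were low and variable, with 6.48 to 25.7 and 18.0 to 61.0 normalized counts, and neither separated the groups (log2 fold change 0.09 ± 0.53, unadjusted p = 0.867 and log2 fold change -0.05 ± 0.49, unadjusted p = 0.919 in limma). For each of the 4 genes the exact permutation test over libraries gave p = 0.1 (two-sided), the smallest that 3 against 3 libraries allow.

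**Figure D3:**
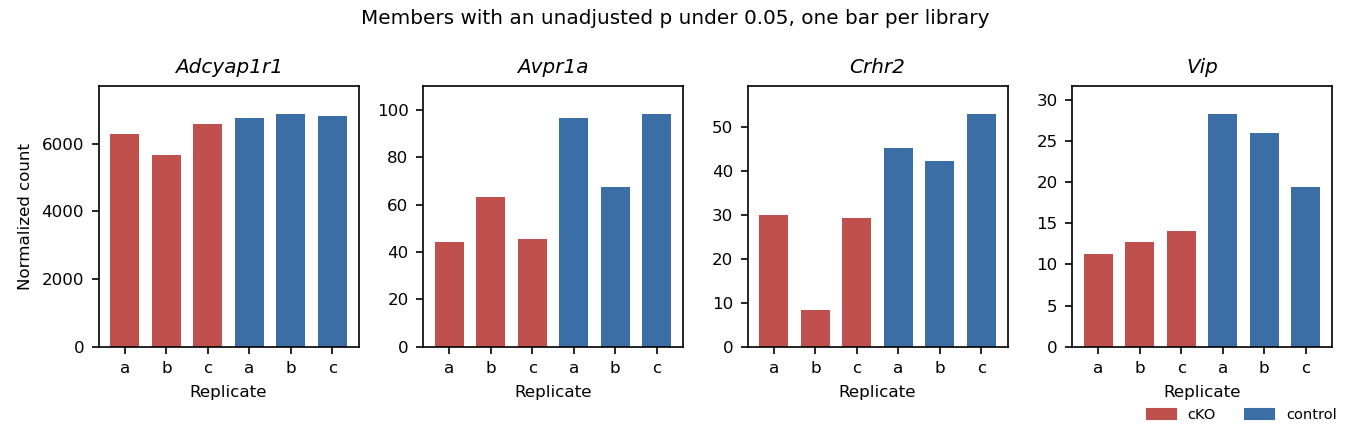
Normalized count of Adcyap1r1, Avpr1a, Crhr2 and Vip in each library, with one bar per library, cKO in red and control in blue, and each axis starting at 0. In each panel the 3 cKO bars lie below the 3 control bars, by little for Adcyap1r1 (means 6189 and 6820.2) and by more for Crhr2 (means 22.6 and 46.8).

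The sequence before the transcription start was compared among these 4 genes, the members that were lower in all 3 cKO libraries. RefSeq (GRCm38.p6) promoters were matched for 39 members, which have 45 promoters, and the 250 bases before the start were searched for the cyclic AMP response element TGACGTCA, its core TGACG, the homeodomain core TAATTA (all on both strands, the core also matching within the full element) and the TATA box TATAAA (on the strand of the gene only). Matches are in capitals, 5′ to 3′ on the strand of the gene, for Adcyap1r1 (chr6:55451728-55451977), Avpr1a (chr10:122448249-122448498), Crhr2 (chr6:55133017-55133266) and Vip (chr10:5638968-5639217), each of which lies outside GENCODE exons.
Adcyap1r1: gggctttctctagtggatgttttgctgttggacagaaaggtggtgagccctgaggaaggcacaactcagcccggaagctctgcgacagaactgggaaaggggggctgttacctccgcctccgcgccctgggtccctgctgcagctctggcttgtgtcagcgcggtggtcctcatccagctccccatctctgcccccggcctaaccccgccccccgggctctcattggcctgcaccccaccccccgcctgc
Avpr1a: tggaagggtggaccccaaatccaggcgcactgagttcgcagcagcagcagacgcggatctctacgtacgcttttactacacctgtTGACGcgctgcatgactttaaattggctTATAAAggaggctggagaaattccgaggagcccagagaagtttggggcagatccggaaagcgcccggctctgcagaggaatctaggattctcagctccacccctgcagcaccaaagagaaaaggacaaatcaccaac
Crhr2: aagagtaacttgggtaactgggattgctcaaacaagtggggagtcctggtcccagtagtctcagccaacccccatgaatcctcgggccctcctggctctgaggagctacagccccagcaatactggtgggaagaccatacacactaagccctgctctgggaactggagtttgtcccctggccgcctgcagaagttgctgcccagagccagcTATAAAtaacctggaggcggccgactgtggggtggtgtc
Vip: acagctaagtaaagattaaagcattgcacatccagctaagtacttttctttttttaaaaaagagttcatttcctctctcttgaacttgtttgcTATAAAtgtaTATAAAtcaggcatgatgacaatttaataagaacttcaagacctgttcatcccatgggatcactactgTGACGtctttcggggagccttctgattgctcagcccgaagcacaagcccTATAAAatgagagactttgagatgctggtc
TATAAA was found in Avpr1a, Crhr2 and Vip, where it began at positions -137, -39 and -30 from the start, with 2 further matches in Vip at -157 and -147, and it was not found in the window of Adcyap1r1. The core TGACG was found in Avpr1a and Vip. Over all members, TATAAA was in 9 promoters (20%), beside 7.59% of all 32851 promoters, and TGACG in 17 (37.8%), beside 17.8%. TAATTA was in 2 promoters of members (4.44%), those of Pomc and Tac1, beside 4.84% of all promoters. A match describes these letters and not a bound site.

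Marker genes of several cell types were called at an unadjusted p under 0.05 in the same libraries, and none of them had an adjusted p under 0.05. Over all genes tested, 1.61% were called lower and 1.19% higher at that threshold. Of the called genes named here, Tph2, Fev, Tlx3, Dlx5, Hba-a1 and Hbb-bs overlapped between the groups. Of 4 serotonergic genes, Tph2, Slc6a4 and Fev were lower in the cKO at an unadjusted p under 0.05, and their summed level was 193 to 466 normalized counts in the cKO and 497 to 638 in the control, with none of them at 0. Of 6 sensory ganglion genes, 2 (Prph and Tlx3) were lower at that threshold, with a summed level of 170 to 218 in the cKO and 224 to 399 in the control, and Scn10a was at 0 in all libraries but control replicate a. Of 8 midbrain genes, En1 and En2 were lower, and the list summed to 7358 to 8890 in the cKO and 8883 to 9741 in the control. The forebrain GABAergic genes Dlx1, Dlx5 and Dlx6 were higher in the cKO at that threshold, with Dlx6 at 334, 431 and 363 normalized counts in the cKO and 207, 293 and 245 in the control. For Dlx5, control replicate b (254) lay above cKO replicates a (247) and c (246). Dlx2 was not called (log2 fold change 0.30 ± 0.21, unadjusted p = 0.186 in limma). Of 7 mdDA markers, Ddc and Pitx3 were lower and Aldh1a1 was higher, with sums of 8239 to 8587 in the cKO and 7671 to 9283 in the control. Of 8 bone and mesenchyme genes, 1 (Col3a1) was higher at that threshold, while all 8 had a fitted value above 0 and were highest in cKO replicate c. That list summed to 2045, 481 and 13748 in the cKO and 485 to 564 in the control. Of the remaining lists, 2 of 6 blood genes (Hba-a1 and Hbb-bs) were higher, and 0 of the tested vascular, motor neuron and pituitary genes passed. The part of these cells in the lower Adcyap1r1, Avpr1a, Crhr2 and Vip was not tested.

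Somatostatin and its receptors overlapped between the genotypes. Sst, an inhibitory peptide of many interneurons and projection neurons, lies on chromosome 16 (ENSMUSG00000004366, chr16:23889573-23890958, minus strand) and had 1561, 1121 and 1117 normalized counts in the cKO and 1084, 1401 and 1106 in the control. The groups overlapped, and the log2 fold change was 0.08 ± 0.13 (SE; unadjusted p = 0.545 in limma). The receptor Sstr1 had 279, 294 and 254 normalized counts in the cKO and 283, 388 and 332 in the control (log2 fold change -0.26 ± 0.14, unadjusted p = 0.0959 in limma), so that control replicates b and c were above every cKO library and control replicate a was not, and without control replicate a the log2 fold change was -0.39 (unadjusted p = 0.0184 in limma), while without control replicate b it was -0.14 (unadjusted p = 0.354). Sstr2 lay between 212 and 280.0 (log2 fold change -0.08 ± 0.14, unadjusted p = 0.605 in limma). Sst is a textbook target of cyclic AMP signalling, and the full element TGACGTCA was found in promoters of 4 members (8.89% of their 45 promoters), Sst, Sstr2, Cartpt and Ucn (whose sequence alone was used), beside 1.55% of all promoters. The element is shown in capitals with 10 bases on each side for Sst (chr16:23890875-23890902) and Cartpt (chr13:99900778-99900805), 5′ to 3′ on the strand of the gene, and GENCODE places both stretches in the first exon of a longer transcript.
Sst: cctccttggcTGACGTCAgagagagagt
Cartpt: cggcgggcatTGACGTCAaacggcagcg
Cartpt, the precursor of the peptide CART, also overlapped between the groups, with 134, 122 and 123 normalized counts in the cKO and 136, 123 and 145 in the control (log2 fold change -0.08 ± 0.17, unadjusted p = 0.636 in limma).

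The opioid and nociceptin genes were the largest family, with 4 precursors and 4 receptors, and none of them separated the genotypes. Oprl1, the nociceptin receptor, lies on chromosome 2 (ENSMUSG00000027584, chr2:181715016-181720985, plus strand) and had 5722, 5776 and 5358 normalized counts in the cKO and 5377, 5741 and 5603 in the control. This was the most tightly measured member, with a log2 fold change of 0.01 ± 0.05 (SE) in limma and a 95% interval of -0.09 to 0.12. Its ligand gene Pnoc had 779 to 869 normalized counts and an interval of -0.12 to 0.22. Penk, which encodes the enkephalins, had 244, 179 and 239 normalized counts in the cKO and 264, 244 and 209.5 in the control (log2 fold change -0.13 ± 0.16, unadjusted p = 0.442 in limma), and reads of its exons cannot be told apart from those of a transcript on the opposite strand over 233 bases if strand was not used in counting. Pdyn, which encodes dynorphins, lay between 221 and 246 (log2 fold change 0.08 ± 0.13, unadjusted p = 0.53 in limma), and Pomc, the precursor of beta-endorphin and corticotropin, between 24.4 and 52.0. The classical opioid receptors were far below Oprl1: per kilobase of merged exon, the kappa receptor Oprk1 stood at 11.8, the delta receptor Oprd1 at 5.03 and the mu receptor Oprm1 at 4.28. Per kilobase of the longest transcript these were 23.1, 5.03 and 14.2, so that the order of the delta and mu receptors depends on the length used. Oprm1 was also among the most variable members, with 43.1, 15.8 and 56.3 normalized counts in the cKO and 35.4, 19.2 and 36.7 in the control, and cKO replicate b held the lowest value.

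Tachykinin and neurotensin genes, whose receptors are known from mdDA neurons, overlapped between the genotypes as well. Tac1, the precursor of substance P, had 668, 354 and 482 normalized counts in the cKO and 511, 502 and 541 in the control. The control libraries were within a narrow band, while cKO replicate a lay above it and cKO replicates b and c below it. The log2 fold change of Tac1 was -0.08 ± 0.18 (SE, unadjusted p = 0.674 in limma) with all libraries and -0.33 (unadjusted p = 0.0379) without cKO replicate a. It turned to 0.15 (unadjusted p = 0.318) without cKO replicate b. Tacr1, the substance P receptor, had 336, 241 and 326 and 365, 335 and 292 (log2 fold change -0.15 ± 0.15, unadjusted p = 0.345 in limma), and Tacr3, the receptor for neurokinin B, had 129 to 184 (log2 fold change -0.12 ± 0.19, unadjusted p = 0.538 in limma). Neurotensin (Nts) varied little, with 241, 208 and 233 normalized counts in the cKO and 228, 241 and 229 in the control and a log2 interval of -0.32 to 0.26. Its receptor Ntsr1 lay between 160.1 and 211 (log2 fold change 0.02 ± 0.16, unadjusted p = 0.914 in limma), and the second receptor Ntsr2 between 8.45 and 14.4.

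Among the tested members of the remaining families, the level ranged from Npy, at 314 normalized counts per kilobase, to Npy2r at 8.97. Neuropeptide Y (Npy) had 161, 178 and 207 normalized counts in the cKO and 245, 147 and 127 in the control, and control replicates alone spanned more than the cKO libraries did (log2 fold change 0.09 ± 0.23, unadjusted p = 0.715 in limma). Its receptor Npy1r lay between 96.2 and 174 (log2 fold change 0.03 ± 0.22, unadjusted p = 0.9 in limma) and Npy2r between 20.3 and 39.4. Galanin (Gal) lay between 41.2 and 60.5 normalized counts and its receptor Galr1 between 22.1 and 58.1. The cholecystokinin receptors Cckbr and Cckar had 57.1 to 91.3 and 21.6 to 54.9. Neither Nmb nor Grp, which encode bombesin-like peptides, separated the groups: Nmb lay between 57.6 and 85.5, with 163 bases of exon shared with Sec11a on the same strand, and Grp, one of the most variable members, between 24.8 and 78.8 (log2 fold change 0.10 ± 0.39, unadjusted p = 0.794 in limma). Calca, the gene of calcitonin and a calcitonin gene-related peptide, lay between 57.4 and 82.3, with a log2 fold change of -0.17 ± 0.23 (SE).

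Of the precursors known from the hypothalamus, Avp, Crh, Trh and Pmch had their lowest level in a control library, control replicate b, and others did not. Avp, the vasopressin precursor (ENSMUSG00000037727, chr2:130580620-130582554, minus strand), had 15.9, 21.1 and 15.2 normalized counts in the cKO and 46.0, 0 and 9.72 in the control, where 0 reads in control replicate b allow a level of up to 2.88. Crh, which encodes corticotropin-releasing hormone (ENSMUSG00000049796, chr3:19693401-19695396, minus strand), had 9.37, 23.2 and 15.2 in the cKO and 23.9, 0.961 and 5.40 in the control. Trh, the precursor of thyrotropin-releasing hormone (ENSMUSG00000005892, chr6:92242061-92244650, minus strand), had 48.7, 52.8 and 42.2 and 69.9, 22.1 and 50.8. In all of these genes control replicate a held the highest value and control replicate b the lowest. Pmch, the precursor of melanin-concentrating hormone (ENSMUSG00000035383, chr10:88091072-88092375, plus strand), had 238, 251 and 195 in the cKO and 211, 96.1 and 222 in the control, again with control replicate b lowest. Oxt and Hcrt, hypothalamic products with 16 and 11 reads over all libraries, did not follow this: Oxt had 2.81, 3.17 and 4.33 normalized counts in the cKO and 0, 2.88 and 3.24 in the control, lowest in control replicate a, and Hcrt had 2.81, 0 and 4.33 and 2.65, 0 and 1.08, at 0 in both cKO replicate b and control replicate b. Among hypothalamic peptides outside the list, Ghrh (growth hormone-releasing hormone), at 7.08, 21.1 and 9.72 in the control, and Agrp (agouti-related peptide), at 5.31, 8.65 and 0, were highest in control replicate b. Agrp had 18 reads over all libraries and was not tested, and 114 bases of its exons overlap Ctcf and Gm5914. Npvf was at 0 in control replicate b. Gnrh1 (gonadotropin-releasing hormone) was lowest in cKO replicate c (7.58), with control replicate b close to it (7.68) and the other controls at 34.5 and 18.4. All of these were named after their values were seen.

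Hypothalamic transcription factors followed the same library. Of the 12 hypothalamic markers, 9 of the 11 tested were lowest in control replicate b, where the summed level was 7621 normalized counts beside 8696 and 9310 in the other controls and 9483 to 10087 in the cKO. Lhx9 held the largest part of these sums and went the other way among the controls, with 4682, 5251 and 4169 normalized counts. In the cKO it had 5995, 5124 and 4614. Nkx2-1 had 969.7, 360.2 and 1134 normalized counts in the control libraries, Rax had 55.7, 0 and 32.4, Hmx3 had 69.0, 11.5 and 118 and Bsx had 103, 26.9 and 82.1, and Rax and Six6 were at 0 in control replicate b, as was Nr5a1, which was also at 0 in cKO replicate a. Of these markers, 2 (Sim1 and Foxb1) were higher in the cKO at an unadjusted p under 0.05, beside 1.19% of all genes tested. Both were lowest in control replicate b, with Sim1 at 899, 547 and 903 and Foxb1 at 954, 660 and 901 in the control. Their fits without that library are not given here. Over all genes tested, control replicate b was the lowest library for 16.5%, and among the members for 7 of 41, of which 6 are precursors: Avp, Crh, Trh, Pmch, Nmb and Adcyap1, named after their values were seen. cKO replicate b was the lowest library for more members, 13 of 41 (9 receptors and 4 precursors), beside 16.7% of all genes tested. The part of hypothalamic tissue in these levels was not tested.

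**Figure D4:**
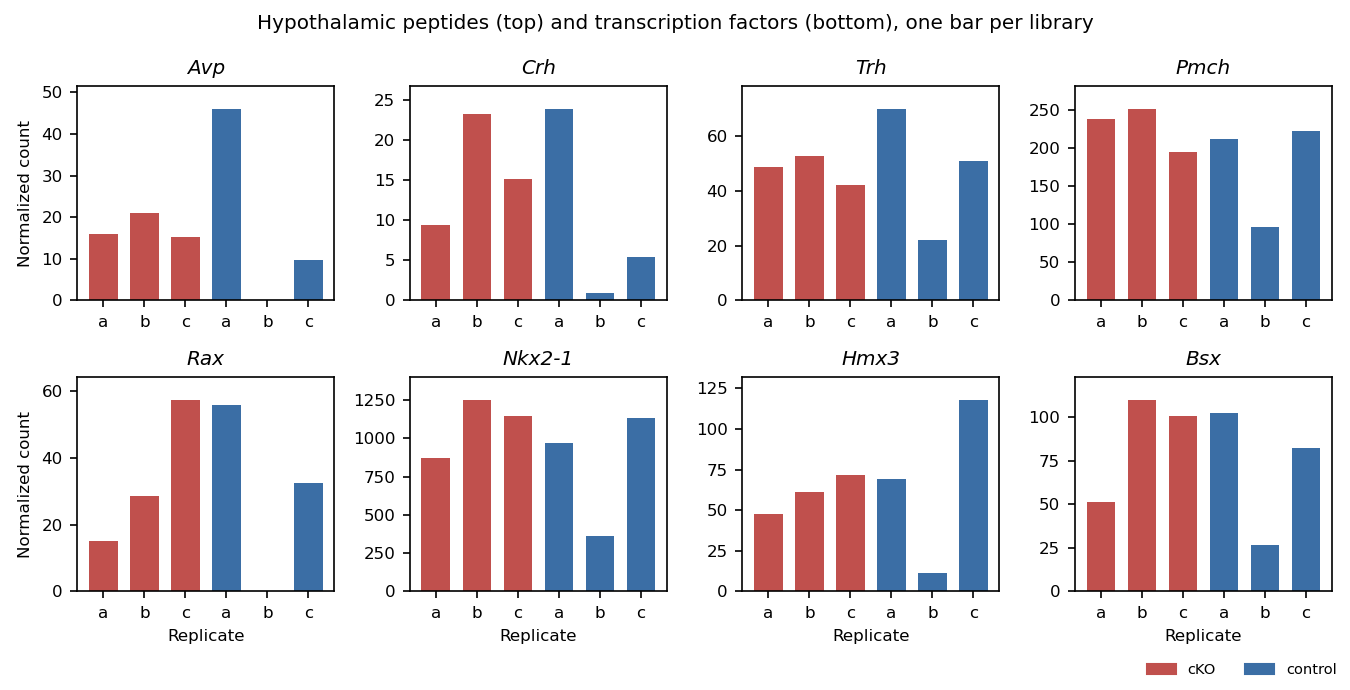
Normalized count of the precursors Avp, Crh, Trh and Pmch (top) and of the transcription factors Rax, Nkx2-1, Hmx3 and Bsx (bottom) in each library, with one bar per library, cKO in red and control in blue, and each axis starting at 0. Control replicate b has the lowest bar in every panel, at 0 reads for Avp and Rax.

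The fold changes of these precursors depended on single control libraries. With all libraries, the log2 fold change was 1.5 ± 1.11 (SE) for Avp, 1.32 ± 0.83 for Crh, 0.46 ± 0.27 for Pmch and 0.15 ± 0.40 for Trh, with unadjusted p = 0.204, 0.138, 0.107 and 0.718 in limma. The mean of Avp went the other way from its fitted value, at 17.4 ± 3.25 for the cKO libraries and 18.6 ± 24.2 for the controls (normalized counts, SD, n = 3), and its fitted value rests on the 0 reads in control replicate b. Grp, Ntsr1, Oxtr and Vipr1 also had a slightly lower mean in the cKO and a fitted value above 0, each smaller than its standard error. Without control replicate b, the values of Avp, Crh, Pmch and Trh were -0.39, 0.27, 0.07 and -0.34, so that Avp and Trh changed direction. Without control replicate a, Avp (3.07, unadjusted p = 0.0141), Crh (2.41, unadjusted p = 0.0186) and Pmch (0.67, unadjusted p = 0.0388) had an unadjusted p under 0.05 in limma, and so did Pmch without control replicate c (0.65, unadjusted p = 0.0468). Exons of Pmch overlap those of Parpbp on the opposite strand by 435 bases, and the sources used here do not give whether counting used the strand.

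Members varied more between libraries than genes at large. The ratio of the highest to the lowest library had a median of 1.71 over the tested members and 1.27 over all genes tested, and the median standard error of the fitted log2 values was 0.251 and 0.11. Much of this gap goes with level: among genes with a mean of 10 to 100 normalized counts the median ratio was 2.52 for 20 members and 2.33 for all genes, among those of 100 to 1000 it was 1.46 for 18 members and 1.31, and above 1000 it was 1.22 for 3 members and 1.14. In 8 of 41 members (Avp, Crh, Trh, Grp, Crhr2, Oprm1, Vipr1 and Vipr2) the highest library was at least 3 times the lowest, where 8.67% of all genes tested and 32.8% of those with a mean of 10 to 100 reached this ratio. A log2 fold change within 0.2 of 0 was found for 30 of 41 members and 79.1% of all genes tested.

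Of 41 genes that process, release or break down peptides, 37 were tested, and 2 of them were lower and 0 higher at an unadjusted p under 0.05, beside 2.8% of all genes in either direction, and 1 was called without cKO replicate b or without any 1 of the controls. Cadps2, which primes dense core vesicles for release, had 678, 599 and 685 normalized counts in the cKO and 843, 741 and 747 in the control, without overlap (log2 fold change -0.25 ± 0.09, unadjusted p = 0.0201 in limma). Thop1, a peptidase that cleaves neurotensin and other short peptides, had 1196, 1151 and 1126 and 1303, 1276 and 1297, also without overlap (log2 fold change -0.16 ± 0.07, unadjusted p = 0.0334 in limma). The prohormone convertase Pcsk2 stood at 256 normalized counts per kilobase and its relative Pcsk1 at 25.1, and all 3 cKO libraries of Pcsk1, with 155, 155 and 146 normalized counts, were above the controls, with 117, 128 and 145 (log2 fold change 0.24 ± 0.17, unadjusted p = 0.173 in limma). In all, the groups did not overlap for 5 of the 37, beside 7.65% of all genes tested: Cadps2, Thop1 and the peptidase Ece1 (log2 fold change -0.11 ± 0.07, unadjusted p = 0.137 in limma) were below the controls, and Pcsk1 and the aminopeptidase Anpep (log2 fold change 0.55 ± 0.29, unadjusted p = 0.0773 in limma) above them. The carboxypeptidase Cpe was too abundant for its reads to be recovered, and the authors' means were 26536 in the cKO and 26697 in the control.

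Among peptide genes outside the list, 53 of 108 were tested, of which 1 was lower and 2 were higher at an unadjusted p under 0.05, beside 1.61% and 1.19% of all genes tested. Without cKO replicate a or b none of these was called, and without control replicate a or b 1 was. Cck, the precursor of cholecystokinin and a marker of caudomedial mdDA neurons, had 141, 143 and 119 normalized counts in the cKO and 168, 168 and 183 in the control, and the groups did not overlap (log2 fold change -0.36 ± 0.16, unadjusted p = 0.0483 in limma). Its receptors Cckar and Cckbr did overlap, as given above. For Cck, the paper found no significant difference by quantitative PCR at E14.5 and a comparable in situ pattern. Mchr1, the receptor for the product of Pmch, had 126, 155 and 107 in the cKO and 83.2, 80.7 and 112 in the control, with control replicate c inside the range of the cKO (log2 fold change 0.50 ± 0.22, unadjusted p = 0.0412 in limma). Bdkrb2, a bradykinin receptor, had 31.9, 32.8 and 18.4 and 14.2, 9.61 and 18.4, so that the nearest libraries of the groups were level within rounding (log2 fold change 0.98 ± 0.44, unadjusted p = 0.0467 in limma). Of the receptors that pair with named precursors, Trhr, the receptor for the product of Trh, lay between 16.9 and 27.2 normalized counts in the cKO and between 30.2 and 37.2 in the control, without overlap (log2 fold change -0.57 ± 0.35, unadjusted p = 0.131 in limma). Of the 53 tested genes the groups did not overlap for 6, 4 lower and 2 higher in the cKO, beside 7.65% of all genes tested. Npy5r lay between 13.7 and 50.4, Nmbr between 8.66 and 45.1, Grpr between 6.49 and 14.2, Calcrl between 133 and 186 and Sstr4 between 34.7 and 69.1, with Sstr3 at 12.4 to 22.5 and Sstr5 at 4.42 to 19.4.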

How the data were processed

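RNA of E14.5 midbrains (3 cKO and 3 control libraries, pooled from embryos of several litters) was sequenced from both ends and mapped to GRCm38.p4 by the authors; the submitters' processing notes name TopHat 1.0.14, Bowtie2 2.1.0, HTSeq 0.6.1p1 and DESeq 1.10.1. The use of strand in counting is not given in the sources used here. The deposited table holds the signal that the authors averaged per genotype, read counts divided by a size factor per library, with 31.8% on 3 lines that name no gene, which were left out. Its ratio, log2 ratio and p-value columns hold the authors' comparison and were not used.

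Because reads are whole numbers, the reads of each library were searched for behind each mean. A single answer was found for 26372 of 26852 genes (98.2%); 480 genes had means above 10000 and were not searched. A recovered library has a genotype but cannot be tied to 1 sample; replicates a, b and c follow falling size factor.

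Genes with a mean of at least 10 normalized counts were fitted with limma 3.58.1 (voom weights, the authors' size factors, genotype as the only term; R 4.3.3), checked on simulated counts first, with Benjamini-Hochberg adjustment over 16697 genes. The p-values measure the spread between these pools of embryos. Levels per kilobase use merged GENCODE M21 exons. Members are named with values where the mean is at least 100, the unadjusted p is under 0.05, the groups do not overlap, or the highest library is at least 3 times the lowest; other members appear by range. Of other lists, genes with an unadjusted p under 0.05 and partners of named members are given, and any further gene was chosen after its values were seen. Alternatives were other minimum means, size factors, limma-trend, robust fitting, a p of 0.01 and each library left out. Members and lists were chosen with earlier results of these data known. Results for 1 marker gene are not reported here.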

Additional observations from a re-analysis of the deposited data

How the results depend on the processing

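The count of members called lower at an unadjusted p under 0.05 (4) stayed within 1.5 times under other size factors, limma-trend with pseudocounts of 1 and 10, robust fitting and no minimum mean (3, with Vip lost), and was 2 with a minimum mean of 50, 0 with a threshold of 0.01 and 1 to 4 with each library left out. Members called higher were 0 to 3 with each library left out. Over all genes, no minimum mean gave 970 calls (520 lower and 450 higher), a threshold of 0.01 gave 67 (41 and 26), and leaving out each library gave 338 to 637 (211 to 363 lower and 127 to 274 higher); genes with an adjusted p under 0.05 were 0 to 3. Peptide processing genes called were 1 with no minimum mean, 0 at 0.01 and 1 to 2 with each library left out, and the other peptides and receptors were 0 at 0.01 and 0 to 3. The median log2 fold change of tested members was -0.13 to 0.04 with each library left out. Levels per kilobase moved by more than the spread of the libraries for 9 of 41 members with the longest transcript in place of merged exons, an alternative chosen after seeing the data. No paired analysis was possible because the recovered libraries carry no replicate number. The cause of these changes was not tested. Depth limits the low members most: 20 of the 41 tested have means of 10 to 100.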
